A study of Homo sapiens with 8 samples.

Results

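N6-methyladenosine (m6A) peaks of at least 1500 nt, counted as the sum of a peak's exon blocks, in at most 3 blocks were taken from the peak lists of HCT116 cells. They were 1390 of 70751 peaks. Long peaks with overlapping blocks on the same strand were merged, which gave 557 regions on 536 gene names. The members were chosen by the peak length in the lists, so that lengths are given as a description with no test. Of the regions, 165 held a long peak in all 4 lists, 105 in 3 lists, 111 in 2 lists and 176 in 1 list, and every region lay under a peak of some length in every list.

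HCT116 is a human colorectal cancer cell line, and the study asked whether *Fusobacterium nucleatum*, a bacterium found in colorectal tumors, changes the m6A of its mRNAs. Cells received PBS (Control) or *F. nucleatum* (FUSO) for 2 h, with 2 biological replicates each. Polyadenylated RNA was fragmented, and fragments bound by an m6A antibody (IP) were sequenced beside unselected fragments (input), in 8 libraries in all. The 4 deposited peak lists belong to the IP libraries, and expression in FPKM (fragments scaled for transcript length and library total) to the 4 input libraries. A single cell line was used, and the bacterium was present or absent at 1 dose.

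m6A is placed on mRNA by a methyltransferase complex built around METTL3 and METTL14, mostly at an A in the sequence pattern called DRACH, of which GGAC is the best known core. In DRACH the letter D stands for any base but C, R for a purine and H for any base but G. In mRNA the mark is dense in long internal exons and near stop codons, and exon junction complexes keep it low close to splice sites. A peak marks where fragments are enriched, and a long peak can cover many neighboring sites that fragments do not resolve.

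To show what the antibody fraction covered in the longest and in the steadiest regions, the 30-nt stretch with most GGAC motifs is printed for some of them, read from GRCh37 (hg19) 5′ to 3′ on the strand of the gene, with GGAC in capitals. A motif match is a description of the sequence and not a methylated site. RANBP2 (a nuclear pore SUMO ligase), DSP (desmoplakin of desmosomes) and ZNF518A (a zinc finger protein) held 3 of the longest regions. BCL9L is a coactivator of beta-catenin, VCAN encodes the matrix proteoglycan versican, and HEXIM1 inhibits the elongation factor P-TEFb. TICAM1 is the adaptor of Toll-like receptor 3, ARHGAP11A a GTPase activating protein and ERRFI1 a feedback inhibitor of the EGF receptor.
RANBP2, chr2:109384180-109384209, plus strand, CDS: gaaagGGACagaaagagtatggttgtGGAC
ZNF518A, chr10:97918252-97918281, plus strand, CDS: GGACaaaacattgatGGACaaaacctgtac
DSP, chr6:7581632-7581661, plus strand, CDS: GGACgaagcgaagcGGACagtgataaaaat
BCL9L, chr11:118771863-118771892, minus strand, CDS: GGACcctaccaagccatgtcccaGGACatg
VCAN, chr5:82835881-82835910, plus strand, CDS: GGACatcGGACatcctcaaaatcagactgt
HEXIM1, chr17:43226446-43226475, plus strand, 5′UTR: GGACtctgttGGACtgttttttttttcttt
TICAM1, chr19:4818121-4818150, minus strand, CDS: GGACagcaccgaGGACccagaggagccccc
ARHGAP11A, chr15:32928536-32928565, plus strand, CDS: GGACaGGACctaataattcaagttttcaag
ERRFI1, chr1:8073444-8073473, minus strand, CDS: ctactacctgaacgaccaccatacctGGAC

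The long peaks were a small share of each list. Control 1 listed 304 long peaks, Control 2 listed 430, FUSO 1 listed 365 and FUSO 2 listed 291. The mean was 367 ± 89.1 long peaks (SD, n = 2) in Control and 328 ± 52.3 (SD, n = 2) in FUSO, so that the difference between treatments was smaller than the spread within Control. They made up 1.71% to 2.37% of the peaks of a list but 7.97% to 10.2% of its covered bases. The input depth relative to Control 1 was put at 1.10 in Control 2, 1.22 in FUSO 1 and 0.908 in FUSO 2, a rough estimate that rests on 10 to 21 of 261 to 329 genes of very low FPKM per pair of libraries. By this estimate, the lists with most long peaks were those of the 2 deepest inputs. The part of depth in these counts was not tested, and the depth of the IP libraries was unknown. Epithelial markers were expressed, with EPCAM at 162 to 184 FPKM, whereas of the intestinal markers CDX2 stood at 2.73 to 3.73 FPKM, VIL1 at no more than 0.018 FPKM and CDX1 was listed at 0. Of the leukocyte markers, CD3E was listed at 0 in all inputs, PTPRC at no more than 0.0068 FPKM and CD14 at no more than 0.216 FPKM. The fibroblast marker COL1A1 stood at 3.78 to 5.72 FPKM with COL1A2 at 0.

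Median lengths were 1761 nt in Control 1, 1775.5 nt in Control 2, 1798 nt in FUSO 1 and 1828 nt in FUSO 2. Both FUSO medians lay above both Control medians, by 44.8 nt on average. This order is a description, since length chose the members, and the difference was -3.5 nt with a minimum of 1200 nt. The longest peak was one of 5098 nt on PLEC, the cytoskeletal linker plectin, in Control 1. Near the limit, ARHGAP17, KIDINS220 and NUMA1 had peaks of 1500 nt and entered, while peaks of 1499 nt on ARHGAP45, C6orf132 and CEBPZ did not. There were 469 peaks of 1400 to 1499 nt and 303 of 1500 to 1599 nt, so that the limit did not fall at a gap in the lengths. Of the 1390 long peaks, 701 lay in 1 block, 446 in 2 blocks and 243 in 3 blocks.

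The next question was how far the lists agreed on a long peak. Of the Control 1 long peaks, 83.2% shared a region with a Control 2 long peak, and the reverse share was 59.1%. For FUSO 1 the share found in FUSO 2 was 65.8%, and for FUSO 2 the share found in FUSO 1 was 82.5%. Between treatments, 82.8% of the FUSO 2 long peaks had one in Control 2 and 77.3% of the FUSO 1 long peaks did. In Control 1, the shares were 70.8% for FUSO 2 and 58.6% for FUSO 1, lower than in the other FUSO list. Control 2, the list with most long peaks, thus held the largest share of the long peaks of each other list. Regions with a long peak in all 4 lists had a median merged length of 2068 nt, against 1618 nt for those with a long peak in 1 list. Merging more peaks can only lengthen a region and length chose the members, so nothing is read from this contrast.

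**Figure D1:**
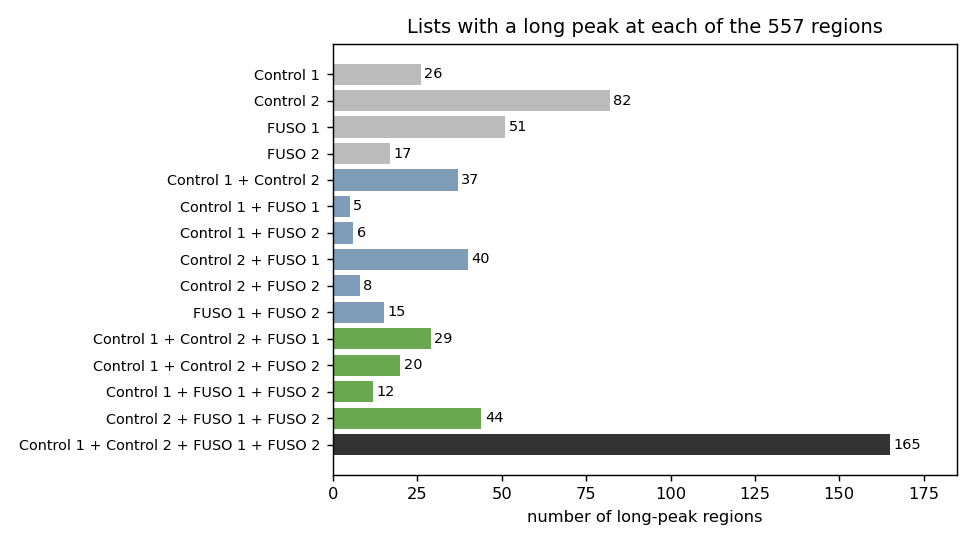
Bars give the number of long-peak regions (x axis) for each combination of lists with a long peak (y axis), with the shade set by the number of lists. The combination of all 4 lists held 165 regions, followed by Control 2 alone with 82.

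A list without a long peak at a region still had peaks there. Over the 4 lists there were 855 such cases. In 522 of them the list held more than 1 shorter peak, in 253 it held 1 shorter peak, and in 80 it held a peak of at least 1500 nt that ran over more than 3 blocks. The median share of the region's bases under peaks in these cases was 86.6%, and it was below 50% in 17 cases. The uncovered gaps between pieces had a median of 149 nt (quartiles 89 and 209 nt). A missing long peak was thus in most cases the same stretch listed in pieces. The lowest coverage was 13.1%, in Control 1 on RTL6, a gene derived from a retrotransposon.

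The longest regions lay on genes of very long exons, which the limit on blocks calls for. The PLEC region measured 5128 nt in the CDS, with peaks of 5098 nt in Control 1 and 5039 nt in Control 2, but 3389 nt in FUSO 1 and 3479 nt in FUSO 2, where the rest was listed in further pieces. On RANBP2, exon 20 of 29 carried a region of 5032 nt within a CDS exon of 5152 nt, and the longest peaks were 2187, 2666, 4164 and 2247 nt in Control 1, Control 2, FUSO 1 and FUSO 2. The FUSO 1 peak was the longest, and that of FUSO 2 lay between those of the Control lists. The DSP region of 4614 nt reached peaks of 4584, 4494 and 4494 nt, with 2757 nt in FUSO 2.

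ZNF518A also had a region of 4614 nt, listed whole in FUSO 1 and at 3087, 2787 and 2787 nt in the other lists. TUG1, known as a long noncoding RNA but annotated as coding here, had peaks of 4492, 4492, 2636 and 4522 nt. On VCAN the longest peaks were 3090, 3150, 3869 and 3210 nt. AKAP12, a scaffold of protein kinase A, had its 4320-nt peak in Control 2, while Control 1 held one peak of 5790 nt in more than 3 blocks and both FUSO lists held 4 pieces. In ZNF518A, TUG1 and VCAN the 2 FUSO lists thus differed more from each other than the 2 Control lists did. ZNF292 (4168 nt), ZNF721 (3975 nt) and BCL9L (3900 nt) completed the 10 longest.

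The 10 regions with the smallest spread of peak length, among those with a long peak in all 4 lists, are given as a description, since they were named for that spread. ERRFI1 had a peak of 1580 nt in each of the 4 lists, the only region with a spread of 0. MRFAP1L1 measured 1591, 1591, 1591 and 1562 nt, ARHGAP11A 1555, 1555, 1584 and 1584 nt, and WDR6, a tRNA methyltransferase subunit, 2725, 2725, 2725 and 2695 nt. TICAM1 (2572 to 2602 nt), HEXIM1 (1945 to 1975 nt) and regions on ARHGAP21, PVR, PDP1 and POGK differed by 30 nt. Among 65 regions with 1 single-block long peak per list, the 3′ ends spanned a median of 60 nt over the lists and the 5′ ends 149 nt.

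**Figure D2:**
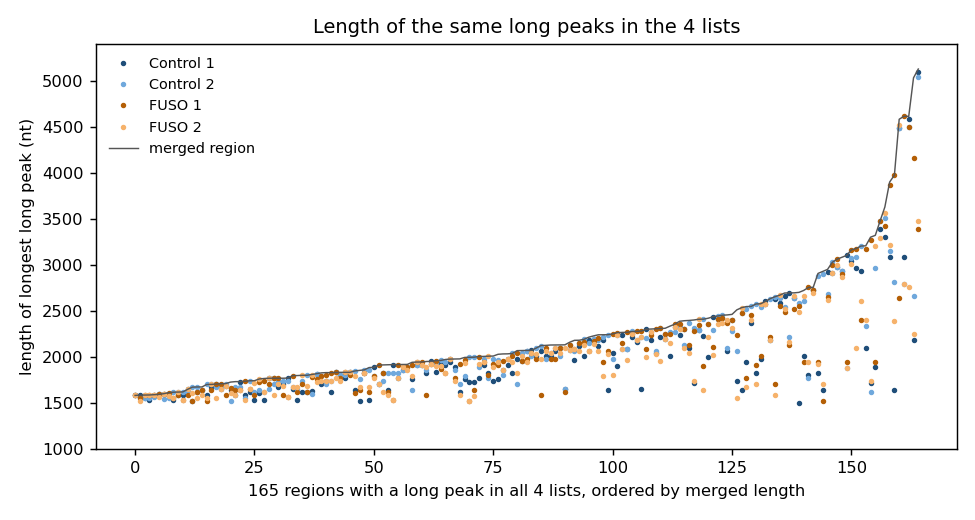
Points give the length in nt (y axis) of the longest long peak in each list, for the 165 regions with a long peak in all 4 lists (x axis, ordered by merged length, drawn as a line). In most regions the 4 points sit together, with a median spread of 150 nt, and the widest spreads occur among the longest regions.

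Lengths in Control and FUSO were then set side by side. In the 165 regions with a long peak in every list the median difference, FUSO mean minus Control mean, was 0 nt (quartiles -59.5 and 59.5 nt), against a median difference of 60 nt between the 2 lists of a treatment. FUSO peaks were longer in 75 regions, shorter in 80 and equal in 10. Both FUSO peaks were longer than both Control peaks in 19 of the 165 regions, and shorter than both in 30. Over all 557 regions, the bases under any peak differed by a median of -15 nt (quartiles -119.5 and 60 nt), again below the 90 nt seen between lists of a treatment. Both FUSO lists covered more bases than both Control lists in 60 regions, and fewer in 136. Over 22001 regions merged from all peaks, those shares were 11.2% and 13.5%, and nothing is read from the comparison since length chose the members.

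There were 37 regions with a long peak in both Control lists and none in FUSO, and 15 with the reverse. Pairs of 1 Control and 1 FUSO list also held regions of their own. Control 2 with FUSO 1 alone had 40, Control 2 with FUSO 2 had 8, and Control 1 had 5 with FUSO 1 and 6 with FUSO 2. The counts of 37 and 15 are thus a description and not read as an effect of treatment. In FUSO lists, all but 1 of the 37 Control regions lay under shorter peaks only. The median share of their bases under peaks there was 84.9%. PHRF1, a RING finger protein that binds RNA polymerase II, had peaks of 2483 and 2512 nt in Control and longest pieces of 839 and 719 nt in FUSO, which together covered 83.5% and 78.7% of the region. On FOXC1, a forkhead transcription factor, peaks of 2100 nt in both Control lists became pieces of up to 931 and 901 nt that covered 64.5% and 47.2%. C22orf46 (1739 and 2758 nt), NUP62, a nuclear pore protein (2184 and 2154 nt), and the transcription factor MYC (2215 nt in both) were the other regions of this kind with the most long-peak bases. Peaks in FUSO 1 and FUSO 2 covered 81.8% and 80.7% of the C22orf46 region. They covered 93.7% and 88.5% of that on NUP62 (93.6% and 92.3% in Control), and 93.3% and 86.6% of that on MYC. JUNB, a member of the AP-1 family, also belonged to these, with 1727 nt in both Control lists and pieces of up to 745 and 686 nt in FUSO. It is named as a gene whose expression changed.

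Of the 15 regions with a long peak in FUSO only, 4 also had a peak of at least 1500 nt in both Control lists, which was not taken because it ran over more than 3 blocks. ANKRD11, a chromatin regulator, had 3054 and 2904 nt in FUSO and 3683 and 5149 nt in Control. ATN1 had 2091 and 2031 nt in FUSO and 2240 and 2389 nt in Control, and TICRR, a replication initiator, also had its longest peaks in Control. ZNF195 (2091 and 2061 nt against 1016 and 1165 nt) and ERCC6L, a DNA translocase of mitosis (2034 and 1825 nt against 1078 and 1047 nt), did have shorter peaks in Control. The limit on blocks thus decided part of this group, against 1 of the 37 Control regions.

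The base composition of the long peaks differed between treatments. Median GC content was 52.6% in Control 1 and 52.8% in Control 2, but 49.7% in FUSO 1 and 49.1% in FUSO 2. The difference of the means was -3.33 percentage points, and the groups did not overlap (exact permutation test, two-sided, p = 0.33, the smallest that 2 libraries against 2 can give). Over all peaks of a list the median was 51.6% ± 0.219 in Control and 50.2% ± 0.221 in FUSO (SD, n = 2), a difference of -1.47 points in the same direction.

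The 37 regions of Control only had a median GC content of 60.04% and the 15 of FUSO only 44.2%. The bases under any peak were also set out by quartile of GC content over the 557 regions. Each region entered through the length of a peak in at least 1 list, so that these values describe the members and restate in part how they were chosen. In the quartile of highest GC content, from 59.3% to 73.7%, the median share of a region under peaks was 95.1% and 98.6% in Control, and 90.7% and 85.2% in FUSO. In that quartile 81 and 115 regions had a long peak in the Control lists, against 68 and 46 in the FUSO lists. In the quartile of lowest GC content, up to 44.9%, the shares were 91.2% and 97.0% in Control, and 98.2% and 94.8% in FUSO.

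Regions merged from all peaks of the 4 lists, which were not chosen by length, showed this order too. Among these regions, 25.6% of the quartile of highest GC content were covered more in both Control lists and 3.67% more in both FUSO lists, against 4.60% and 18.4% in the lowest quartile. In the input libraries, the genes of the regions in the lowest quartile had a median log2 fold change of 0.035 and those in the highest of -0.054. The part of GC-dependent recovery of fragments in these lengths was not tested.

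**Figure D3:**
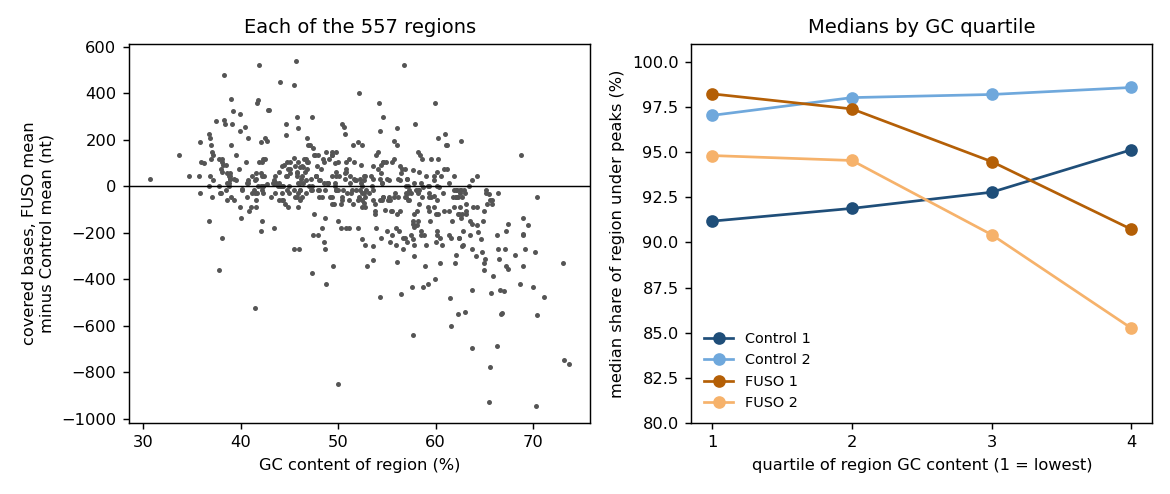
The left panel plots, for each of the 557 regions, the covered bases in FUSO minus Control (means of 2 lists, nt, y axis) against GC content (%, x axis). The right panel plots the median share of a region under peaks (%, y axis, from 80) for each list by quartile of GC content, where both FUSO lists fall below both Control lists in the highest quartile.

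The density of GGAC, but not of DRACH, followed the order of GC content. Long peaks held a median of 4.86 and 4.81 GGAC per 1000 nt in Control and 4.46 and 4.27 in FUSO (difference of means -0.47, exact permutation p = 0.33). DRACH motifs ran the other way, with 19.6 and 20.1 per 1000 nt in Control and 21.4 in both FUSO lists (exact permutation p = 0.33). Over all peaks, GGAC stood at 4.74 per 1000 nt in both Control lists and at 4.44 and 4.50 in FUSO, so that long peaks were close to other peaks in density. GGAC is part of DRACH, and motifs were counted on the strand of the gene.

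Per region the median was 9 GGAC motifs (quartiles 6 and 13). An ANKRD11 region held the most, 41, and a region on DIDO1, a chromatin reader, was densest at 17.2 per 1000 nt. No GGAC was found in 9 regions, on ANKRD17, CDCA2, KIDINS220, PANX1, RMI1, UACA, ZNF180, ZNF23 and ZNF567, and every region held at least 13 DRACH motifs. GC content ranged from 30.7% on ANKRD12 to 73.7% on ZNF316.

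By position, 371 of the 557 regions lay mainly in the CDS, 143 in the 3′UTR and 1 in the 5′UTR of the canonical transcript. Another 29 had less than 90% of their bases on that transcript, 8 had no match in the annotation, and 5 lay on noncoding transcripts. By the same rule, 68.1% of long peaks were classed as CDS and 24.6% as 3′UTR, against 45.1% and 36.0% of all peaks. The 3′UTR share of bases in long peaks was 31.1% and 29.4% in Control and 29.7% and 29.4% in FUSO, with no separation of the treatments (exact permutation p = 0.667). Of 515 regions placed on coding transcripts, 370 (71.8%) included the stop codon, 111 the start codon and 91 both.

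The host exons were long, which the rule of at least 1500 nt in at most 3 blocks calls for in large part. The exon with the largest part of the region had a median of 2839 nt, and it was the last exon for 389 of the 515 regions (75.5%). All exons of at least 1500 nt in genes at 1 FPKM or more had a median of 2840.5 nt, so the host exons were not longer than these. Most long exons held no long peak. Of 5143 last exons of at least 1500 nt that were mostly 3′UTR, in genes at 1 FPKM or more, 245 (4.76%) held a long peak. This was 113 of 341 (33.1%) for last exons that were mostly CDS, and 102 of 442 (23.1%) for exons before the last. The genes of exons with a long peak had a median of 9.96 FPKM and those without of 6.16 FPKM.

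The genes with a long-peak region were next placed by expression. Of the 536 gene names 520 were in the expression table, at a median of 10.2 FPKM (quartiles 6.05 and 18.4), against 9.54 FPKM for 9304 genes with any peak at 1 FPKM or more. The share of genes with a long-peak region was 1.19% at 1 to 3 FPKM, 6.38% at 3 to 10 FPKM, 6.30% at 10 to 30 FPKM, 3.93% at 30 to 100 FPKM and 1.52% above that. It was thus highest at middle levels. AKAP12 was the highest, at a mean of 427 FPKM, and SCN8A, a sodium channel, the lowest, at 0.983 FPKM.

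Among the gene lists examined, zinc finger genes held the most regions, and theirs was also the largest list. Of 344 measured genes whose symbols start with ZNF, ZBTB, ZFP, ZSCAN or ZKSCAN, 57 (16.6%) had a long-peak region, against 4.68% of all 11086 genes tested. In the other lists with measured genes this share ran from 11.1% to 26.7%, so a share above that of all genes was not particular to zinc finger genes. Most of these proteins carry their fingers in 1 long last exon, and 44 of 58 regions were classed as CDS. Their regions had a median GC content of 43.99%, and 14 had a long peak in all 4 lists. ZNF518A, ZNF292, ZNF721 and ZBTB38 (2849 nt) had the longest. In ZBTB38 the longest peaks were 1020 and 1620 nt in Control and 2849 and 2819 nt in FUSO, the reverse of the order in PLEC.

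Chromatin regulators had long-peak regions on 11 of 46 measured genes, all but 1 of 13 regions in the CDS. SRCAP, a remodeler that deposits H2A.Z, held 2754 nt, with longest peaks of 1797, 1766, 2754 and 1946 nt. PHF3 had 2367, 2547, 2457 and 2397 nt, the histone acetyltransferase EP300 had 2004, 2273, 2243 and 2153 nt, and the nucleosome remodeler BPTF had 630, 1469, 1529 and 2188 nt. In SRCAP and BPTF both FUSO peaks were longer than both Control peaks, and in PHF3 and EP300 the treatments overlapped. Among the 165 regions with a long peak in all 4 lists, the treatments were apart with FUSO longer in 19 and with FUSO shorter in 30. Nothing is read from the order in single genes, since length chose the members.

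Genome maintenance genes were represented by 5 of 25. The proliferation marker MKI67 held 3 regions, of which the longest had peaks of 3386, 3476, 3476 and 3296 nt. The kinetochore protein CENPF had 2485 nt, RIF1, which controls replication timing, 2306 nt and BOD1L1, which protects replication forks, 2157 nt. MKI67 changed little between lists, whereas BOD1L1 had 1738 and 2157 nt in Control and pieces of up to 1079 and 510 nt in FUSO.

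Large cytoskeleton and junction genes had a region on 5 of 21, with several regions per gene. AHNAK, a giant scaffold protein, held 5 regions of 11554 nt in all, PLEC 3 regions of 8759 nt, and FAT1, a cadherin of great size, 3 regions of 8088 nt. On the longest AHNAK region the peaks were 2971, 2971, 3061 and 3001 nt, and on the longest FAT1 region 1139, 3534, 3414 and 1199 nt. In that FAT1 region the long peaks stood in Control 2 and FUSO 1, whereas another FAT1 region, of 2906 nt, had a long peak in all 4 lists. In all, 15 gene names held more than 1 region.

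The remaining lists were small. RNA silencing and decay genes had a region on 4 of 15, namely ZC3H4 (3028 nt), the Argonaute partner TNRC6A (1765 nt), the ribonuclease DICER1 (1677 nt) and the helicase UPF1 (1555 nt). Receptor adaptors and Wnt genes had 2 of 13, BCL9L and the insulin receptor adaptor IRS1 (3082 nt), and ubiquitin ligases and proteases 2 of 18, ZNRF3 (1799 nt) and RNF213 (1590 nt). All these lists were chosen with earlier results of these data known.

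Nuclear RNAs had regions on TUG1, MALAT1 and NEAT1, each with a long peak in all 4 lists. On MALAT1, a nuclear speckle RNA, the peaks measured 1827, 1767, 1797 and 2007 nt, and on NEAT1, the scaffold of paraspeckles, 1769, 1889, 2003 and 1919 nt. On MALAT1 the treatments overlapped, and on NEAT1 both FUSO peaks were longer than both Control peaks, which is a description only. TALAM1, antisense to MALAT1, had a region of 1709 nt that lay wholly within that of MALAT1 on the other strand. Whether the libraries kept strand is not given in the sources used here, so that these 2 cannot be told apart. The same applied to CD3EAP and ERCC1, which share 1587 nt. PTOV1-AS1 (1552 nt) and C22orf46 (2788 nt) were the other regions placed on noncoding transcripts.

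Expression was compared in the input libraries to ask which genes with a long-peak region changed with *F. nucleatum*. Of 519 such genes tested, 10 (1.93%) passed a limma adjusted p under 0.05, 7 higher and 3 lower in FUSO, where 0.803% of all 11086 genes passed (0.668% higher and 0.135% lower). The median log2 fold change, on the log2(FPKM + 1) scale, was -0.0022 for these genes and 0.014 for all. The higher ones included early response genes, which cells induce within the first hours of a stimulus. This grouping was made after the values were seen. In bulk RNA, fewer cells that express a gene and less RNA per cell cannot be told apart.

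DUSP5, a phosphatase that inactivates ERK, stood at 91.3 and 81.6 FPKM in Control and 187 and 186 FPKM in FUSO (log2 fold change 1.10, SE 0.069, limma adjusted p = 0.00485). JUNB was at 61.8 and 64.4 FPKM in Control and 102 and 99.6 FPKM in FUSO (0.66, SE 0.055, adjusted p = 0.0114). EGR1, an early response transcription factor, was at 27.3 and 31.1 FPKM against 50.7 and 47.9 FPKM (0.74, SE 0.081, adjusted p = 0.0265). In all 3 genes the libraries of the treatments did not overlap, which was also so for 47.2% of all 11086 genes tested.

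CSRNP1, a nuclear protein induced by AXIN1, rose by 0.72 on the log2 scale, ZFP36L1, which promotes decay of AU-rich mRNAs, by 0.60, TICAM1 by 0.55 and IER2, an early response gene, by 0.43. ZFP36L1 starts with ZFP but binds RNA, and with ZFP36 and ZBTB7A it was 1 of 3 of the 344 measured genes of the zinc finger list that passed the test as higher in FUSO, beside 0.668% of all genes. None of the 138 measured genes of the other lists passed the limma adjusted p, and 14 had an unadjusted p under 0.05, against 13.5% of all genes. A lncRNA on the other strand shares 697 nt of the IER2 region.

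RBM12, an RNA-binding protein, fell from 27.0 and 30.9 FPKM in Control to 6.73 and 7.79 FPKM in FUSO (log2 fold change -1.86, SE 0.10, limma adjusted p = 0.00296). DCAF5, a substrate receptor of a cullin ubiquitin ligase, fell from 6.24 and 6.35 to 1.02 and 1.11 FPKM (-1.82, SE 0.086, adjusted p = 0.00162). TRIO, a guanine nucleotide exchange factor, fell by 0.64 on the log2 scale. RBM12 overlaps CPNE1 on the same strand, over 141 nt of the region, and CPNE1 stood at 50.5 to 54.7 FPKM in all inputs. How the authors' FPKM divide fragments between such transcripts affects RBM12 and is not known here.

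The number of calls changed with the libraries in the fit. The number over all genes changed as well, so this was not particular to genes with a region. With 1 library left out, the lone library of its group was assumed to vary like the others. Only fold changes are therefore given for those fits. The fold changes of the called genes kept their direction with any 1 library left out. That of DUSP5 stayed between 1.02 and 1.18, that of JUNB between 0.63 and 0.69 and that of TRIO between -0.65 and -0.63. EGR1 ranged more widely, from 0.65 to 0.83, and RBM12 from -1.95 to -1.77. RBM12, DCAF5, DUSP5 and JUNB passed under every alternative with all 4 libraries. Among all the genes with a region, 12 of 519 differed more than 2-fold between the 2 libraries of a treatment, such as ZNF518A (2.45 and 9.51 FPKM in Control, 7.42 and 2.44 FPKM in FUSO).

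**Figure D4:**
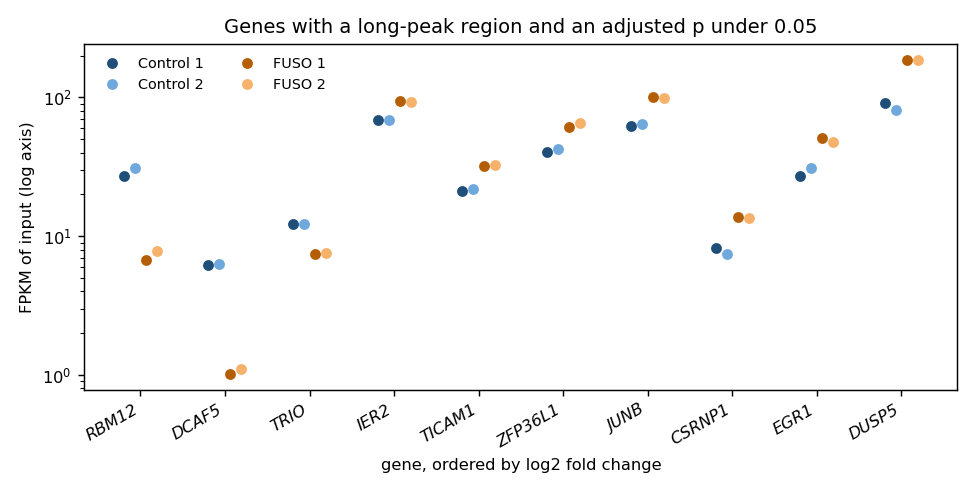
Points give FPKM in the 4 inputs (log axis) for the 10 genes with a long-peak region and a limma adjusted p under 0.05, ordered by log2 fold change (x axis). In RBM12, DCAF5 and TRIO both FUSO points lie below both Control points, and in the other 7 genes above.

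Among the called genes given here, group means of peak length and expression moved the same way in some and opposite ways in others. ZFP36L1, IER2 and TRIO are left out, and the lengths are a description, since length chose the members. EGR1 peaks were 2181 and 2210 nt in Control and 1941 and 1792 nt in FUSO, while its FPKM rose. CSRNP1 peaks were 1530 and 1620 nt against 1590 and 1710 nt, TICAM1 stood at 2602 nt and then 2572 nt in the other lists, and DUSP5 peaks were 1428 and 1577 nt against 1547 and 1696 nt. JUNB, with higher FPKM in FUSO, lost its long peak there as described above. RBM12, at a far lower FPKM in FUSO, had long peaks of 2663 and 2544 nt in Control and 2484 and 2514 nt in FUSO. DCAF5 had 1619 and 1769 nt in Control and 1470 and 1350 nt in FUSO. In RBM12 and DCAF5 both FUSO peaks were thus shorter than both Control peaks, and FPKM was lower.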

How the data were processed

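m6A-seq libraries of HCT116 cells were grouped by the sample labels (Control and FUSO, input and IP, 2 replicates each). The authors trimmed reads (Trim Galore 0.3.3 in their processing notes), aligned them to hg19 with HISAT2 2.1.0 and called peaks per replicate. The deposited peak lists give exon blocks and 1 value per peak, read as the authors' p-value; which program wrote them was not settled. The deposited FPKM came from StringTie on the inputs. FPKM and peak lists carry no read counts, so the absolute depth was unknown.

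Long peaks were selected and merged in Python 3.11.15. Sequence and annotation were GRCh37 with GENCODE release 44 mapped to it. A peak was placed on a canonical transcript when at least 90% of its bases lay on it. Coordinates are 1-based. Relative input depth was the set of ratios with the most genes at or below 0.05 FPKM within 0.02 of it on the log2 scale, a minority of these genes. Expression was tested with limma 3.58.1 (lmFit, eBayes with trend) in R 4.3.3 on log2(FPKM + 1) for the 11086 genes whose mean over the inputs reached 1 FPKM, with Benjamini-Hochberg adjustment over all of them, since FPKM do not allow the count model of the study. The pseudocount understates changes of low genes. The scripts were tested on simulated data. Library medians were compared by exact permutation tests.

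Members, gene lists and tests were chosen with earlier results of these data known. Named were the 10 longest regions, the 10 steadiest in all 4 lists, up to 5 regions per direction with a long peak in 1 treatment only, genes with a limma adjusted p under 0.05, up to 4 of each list by length, those nearest the length limit, and noncoding genes. Alternatives changed the length, block and p-value limits, the merging, the libraries and the expression settings.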

Additional observations from a re-analysis of the deposited data

How the results depend on the processing

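Each value was recomputed under other settings, as FUSO minus Control for quantities per library. With a minimum of 1200 nt there were 1066 regions, 413 in all 4 lists, and the difference in median length was -3.5 nt in place of 44.75 nt. With 2000 nt there were 176 regions, 51 in all 4 lists, and a difference of 7.5 nt, so that the longer FUSO medians rested on the choice of limit. With 1 block only there were 305 regions, 67 of them in all 4 lists. The FUSO minus Control difference in the 3′UTR share of bases, -0.74 percentage points, turned to 0.94 with 1 block, and ranged from -1.60 to 0.12 with 1 library left out (0.12 without Control 1). The lower GC content and GGAC density of FUSO long peaks kept their direction under every alternative run, including pieces joined over gaps of at most 60 nt, chosen after seeing the data. Of the 10 expression calls, 4 passed when low genes were kept in the test and 6 without the trend term. Leaving out 1 library gave 2 to 19 calls. Same-numbered libraries shared little deviation in expression (correlation of same-numbered deviations 0.024). Whether they were handled as pairs is not given by the labels. A fit with the replicate block called 9 of the 10, all but IER2, and 89 of all 11086 genes. With no read counts and 2 libraries a group, small length differences were not detectable.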
